A study of Mus musculus with 4 samples.

Results

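The genes described here are chromatin remodellers and histone modifiers: the enzymes, their scaffolds and the chromatin readers that move nucleosomes or write, erase and recognise marks on histones. They were taken by symbol from the array annotation (Smarc, Chd, Hdac, Sirt, Sin3, Mbd, Cbx, Hmga, Hmgb and Hmgn, Kdm, Kmt, Kat, Prmt and Asxl genes), leaving out 2 sex-linked demethylase genes on the array, Kdm5d and Kdm6a. This gave 56 genes of the 8251 that the array names by a single symbol, from 72 probe sets, with the probe set of highest mean signal standing for each gene. Of the 56, 53 reached the background limit of 27.3 units on at least 1 array and were tested, and 44 reached it on all 4 arrays. Sirt1, Cbx7 and Hmgb4 were under it on every array and were not tested.

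Expression was measured with Affymetrix MG_U74Av2 arrays, 1 for each of 4 cultures, in extraembryonic endoderm (XEN) cells, stem-like cells of the yolk sac endoderm lineage, and in embryonic stem (ES) cells, which are pluripotent. There were 3 XEN cultures. IM8A1-I was of the IM8A1 line (PO strain, passage 27) on gelatin in 70% EMFI-CM. IM8A1-II was that line at the same passage, held for 4 days, on tissue culture plastic, with RPMI 1640 that contained 20% FBS. XEN1-3 was of the ICR strain at passage 18, on gelatin in 70% EMFI-CM. The ES culture held R1 cells, undifferentiated, on gelatin with LIF. Signals of the XEN cultures are always given in this order. They are 3 samples of 2 lines, so p-values measure the spread between them, and the lone ES culture was assumed to have the same spread.

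All 8 ES markers examined fell in XEN cells and all 8 XEN markers rose: Pou5f1 had 2.6, 1.8 and 2.1 units in XEN, against 3191 in ES, and Gata6 had 1973, 1086 and 2468, against 13.1. Summed signal of 12 fibroblast and feeder markers was 672 to 748 units in XEN and 559 in ES, with 5 of the 12, Col3a1 and Postn among them, under the limit on every array. Of the rest, Col1a2 (352, 353 and 403 units, against 206 in ES), Twist2 (69.3, 39.8 and 151, against 22) and Lum were higher in every XEN culture. Thy1, Col1a1 and Prrx2 were lower in every XEN culture. Twist1 was mixed, at 156, 87.5 and 5.8 units in XEN, against 11.8 in ES. Summed signal of 10 trophoblast markers was 2653 to 6702 units in XEN and 1968 in ES, most of it Krt8 and Krt18, which endoderm also expresses, and Cdx2 and Elf5 were under the limit everywhere. Tfap2c, in the same list, ran the other way, with 13.1, 14.8 and 10.8 units in XEN and 767 in ES (at least 28.1-fold lower, limma adjusted p = 0.00182). The 10 germ layer markers summed to 181 to 419 units in XEN and 256 in ES. The part of these other cell types in the results was not tested. Per the file headers, the XEN arrays shared 1 chip lot and the ES array had another, so the lot cannot be told apart from the cell type. The run record of XEN1-3 carries 1 message that no fluid was detected, and calls without that array are counted below. That of IM8A1-II bears the letters DIFF, left unexplained by the labels.

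Nucleosome remodellers of the SWI/SNF (BAF) family use an ATPase, either Smarca4 (Brg1) or Smarca2 (Brm), with a set of core subunits to slide or evict nucleosomes. Mouse ES cells are known for a BAF complex built on Smarca4 and Smarcc1 (BAF155), while many other cells use Smarca2 as well. Histone deacetylases work largely inside co-repressor complexes on the scaffolds Sin3a or Sin3b, or with Chd4 in the NuRD complex, and demethylases of the Kdm families remove methyl groups from histone lysines.

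The promoters of 6 members are shown first, 3 that rose most and 3 that fell most among called members with a single start in the promoter table, so that the sequence can be read beside the values. Each window holds 300 bases, 250 before and 50 after the annotated start, on the plus strand of GRCm38.p6, from RefSeq: chr19:26604910-26605209 for Smarca2, chrX:71555667-71555966 for Hmgb3, chr7:28766502-28766801 for Sirt2, chr1:134559928-134560227 for Kdm5b, chr11:96788885-96789184 for Cbx1 and chr9:110131774-110132073 for Smarcc1. Capitals mark the GC box, GGGCGG on either strand, the motif of Sp1-type factors.
Smarca2: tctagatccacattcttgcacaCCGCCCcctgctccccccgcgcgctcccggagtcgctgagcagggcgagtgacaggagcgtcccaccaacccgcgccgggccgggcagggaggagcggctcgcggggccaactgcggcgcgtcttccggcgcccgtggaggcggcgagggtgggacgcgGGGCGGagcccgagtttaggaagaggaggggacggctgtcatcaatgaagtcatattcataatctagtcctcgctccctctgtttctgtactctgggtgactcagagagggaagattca
Hmgb3: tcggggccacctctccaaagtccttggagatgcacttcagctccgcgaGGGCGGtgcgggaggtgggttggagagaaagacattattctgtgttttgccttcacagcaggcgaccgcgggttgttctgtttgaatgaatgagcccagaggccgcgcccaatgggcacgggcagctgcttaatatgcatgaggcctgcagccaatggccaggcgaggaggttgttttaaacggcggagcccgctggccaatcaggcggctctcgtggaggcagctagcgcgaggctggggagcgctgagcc
Sirt2: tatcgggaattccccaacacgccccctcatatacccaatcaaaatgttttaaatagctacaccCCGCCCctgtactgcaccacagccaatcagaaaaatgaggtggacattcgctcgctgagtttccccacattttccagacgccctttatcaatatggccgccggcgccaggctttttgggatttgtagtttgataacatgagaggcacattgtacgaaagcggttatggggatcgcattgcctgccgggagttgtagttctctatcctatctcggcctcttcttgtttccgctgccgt
Kdm5b: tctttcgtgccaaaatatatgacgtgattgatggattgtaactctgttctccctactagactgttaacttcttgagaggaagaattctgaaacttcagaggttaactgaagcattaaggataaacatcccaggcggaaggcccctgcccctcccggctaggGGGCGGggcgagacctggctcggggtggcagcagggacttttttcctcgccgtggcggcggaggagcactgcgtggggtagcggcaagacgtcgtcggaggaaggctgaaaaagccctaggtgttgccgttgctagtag
Cbx1: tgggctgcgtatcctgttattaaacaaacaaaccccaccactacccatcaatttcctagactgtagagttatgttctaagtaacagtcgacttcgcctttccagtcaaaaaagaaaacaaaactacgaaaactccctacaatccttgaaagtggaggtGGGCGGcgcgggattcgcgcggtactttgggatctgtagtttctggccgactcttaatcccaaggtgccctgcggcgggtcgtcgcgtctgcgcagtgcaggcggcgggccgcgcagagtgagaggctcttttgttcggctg
Smarcc1: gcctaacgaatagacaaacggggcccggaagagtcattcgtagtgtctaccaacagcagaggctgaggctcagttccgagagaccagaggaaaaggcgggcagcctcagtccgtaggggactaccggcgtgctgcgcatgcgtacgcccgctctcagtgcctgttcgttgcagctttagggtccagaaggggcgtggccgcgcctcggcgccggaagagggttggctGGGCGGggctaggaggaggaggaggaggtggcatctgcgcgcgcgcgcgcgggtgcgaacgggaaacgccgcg

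Each of the 6 windows held at least 1 GC box, and the Smarca2 window held 2. The Smarcc1 window had the most CpG dinucleotides of the 6, 33, and the Sirt2 window the fewest, 16. Promoters of chromosome 18, where 4 members lie, were left out of the search. The box was common in the rest of the class: among 58 windows of the 45 members matched by gene ID, 41 (70.7%) held it. It stood in 35.7% of all 32851 windows searched, which include noncoding genes. The median window had 22.5 CpG dinucleotides for members and 7 for all windows. The letters AGATAA, which endoderm zinc finger factors such as Gata4 and Gata6 are known to bind, stood in 4 member windows (6.9%, against 11.2% of all windows) and in none of the 6 printed. The octamer ATTTGCAT of POU factors stood in 0 member windows, against 1.74% of all windows. Both were searched on both strands. A match of letters is a description of these windows and not a binding site.

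Compared with ES cells, XEN cells had lower signal for most of the chromatin genes, and the share called as risen was near the array-wide share. On limma's moderated test over all 8582 tested probe sets, with a Benjamini-Hochberg adjusted p under 0.05, 7 members fell (Kdm5b, Cbx1, Smarcc1, Hdac1, Kdm3b, Asxl1 and Sin3a) and 3 rose (Smarca2, Hmgb3 and Sirt2), while 43 did not pass. The falls were 13.2% of the 53 members, beside 5.05% of all tested probe sets, and the rises were 5.66%, beside 5.58%. With 1 probe set per gene chosen in the same way, 5.37% of 6345 tested genes fell and 5.75% rose. At an unadjusted p under 0.05, 17 members were lower (32.1%, beside 14.5% of all tested probe sets) and 5 higher (9.43%, beside 15.1%). These array-wide shares are the background for each family and gene list as well. The median log2 change of members, XEN minus ES, was -0.50, against 0.05 over all tested probe sets. In a bulk culture, fewer cells of a type and less RNA per cell cannot be told apart.

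The lower level was seen in each XEN culture. IM8A1-I had a members' median log2 difference from ES of -0.38, IM8A1-II one of -0.39 and XEN1-3 one of -0.43. All 3 XEN arrays lay below ES for 33 members (62.3%), a position held by 34% of all tested probe sets, and above ES for 13 members (24.5%), beside 39%. The other 7 members had ES inside the range of the XEN arrays. In every XEN array, 9 members were at least 2-fold lower than in ES (17%, beside 7.74% of all tested probe sets) and 4 were at least 2-fold higher (7.55%, beside 8.13%). The number of calls changed when 1 XEN array was left out, in fits that measure the spread from fewer arrays. In these fits, 1 member fell without IM8A1-I, 2 without IM8A1-II and 8 without XEN1-3, while 2, 1 and 3 rose. The shares of all tested probe sets moved as well: 2.11%, 2.46% and 8.27% fell, and 2.16%, 2.71% and 9.07% rose.

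**Figure D1:**
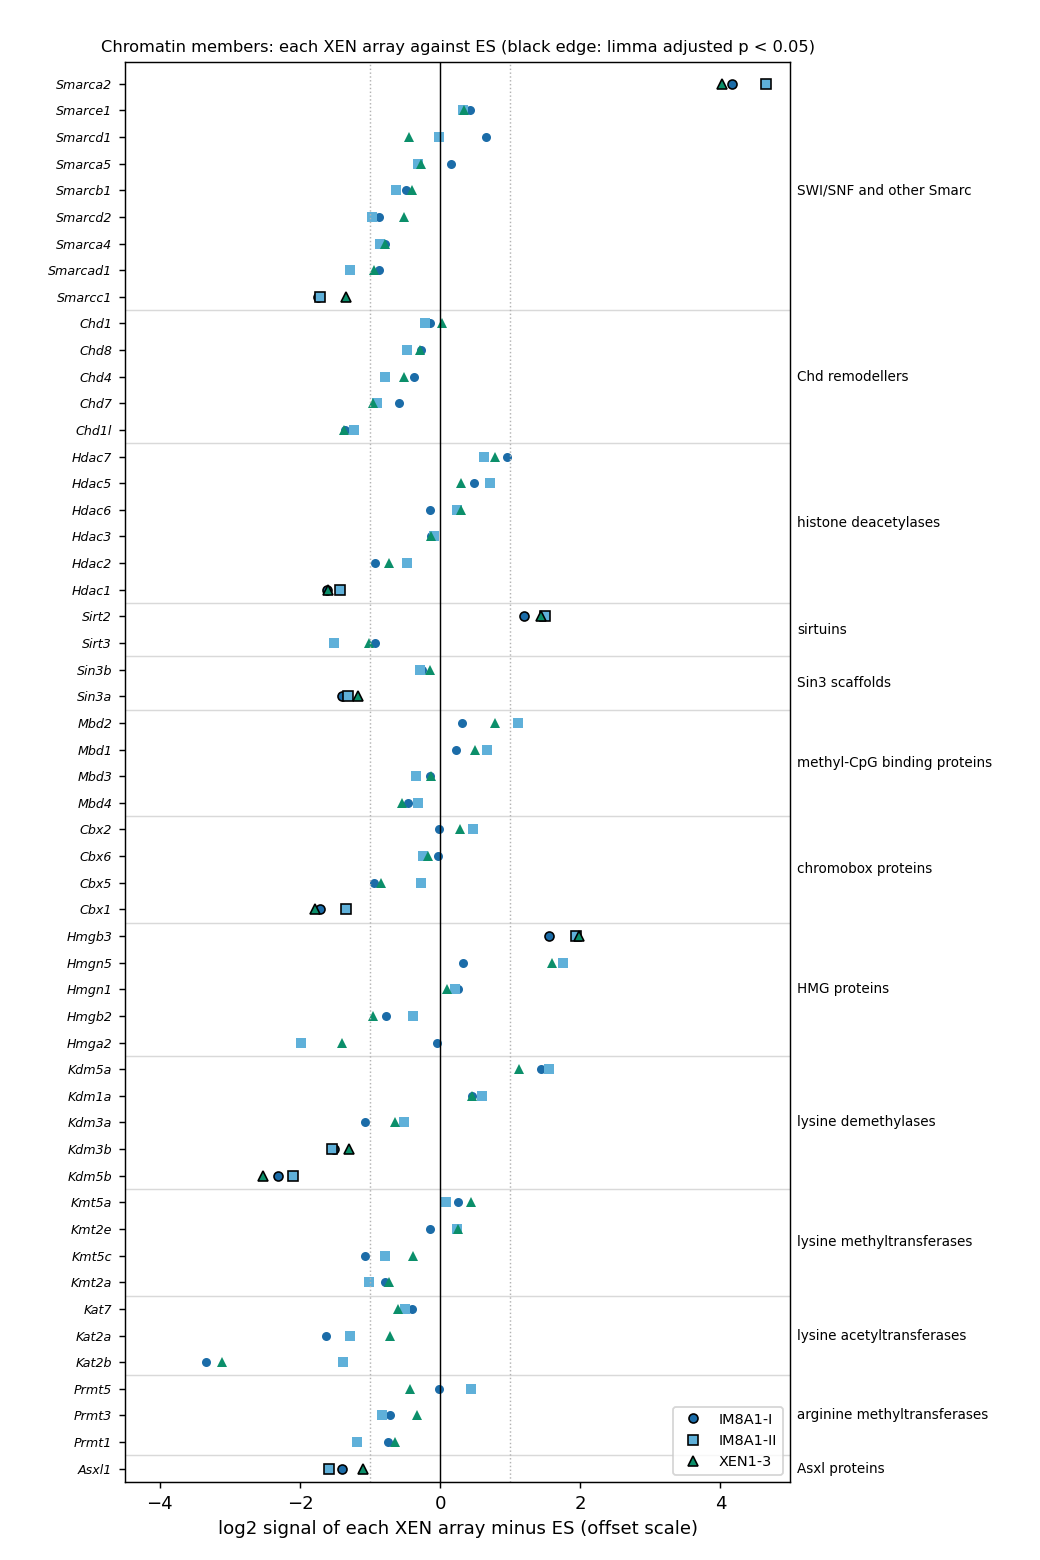
Log2 signal of each XEN array minus ES (x axis, offset scale) for the 53 tested members, grouped by family, with circles for IM8A1-I, squares for IM8A1-II and triangles for XEN1-3 and a black edge for the 10 members past the limma threshold. Most symbols lie left of 0, and on this scale the 3 Smarca2 symbols lie farthest to the right.

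**Figure D2:**
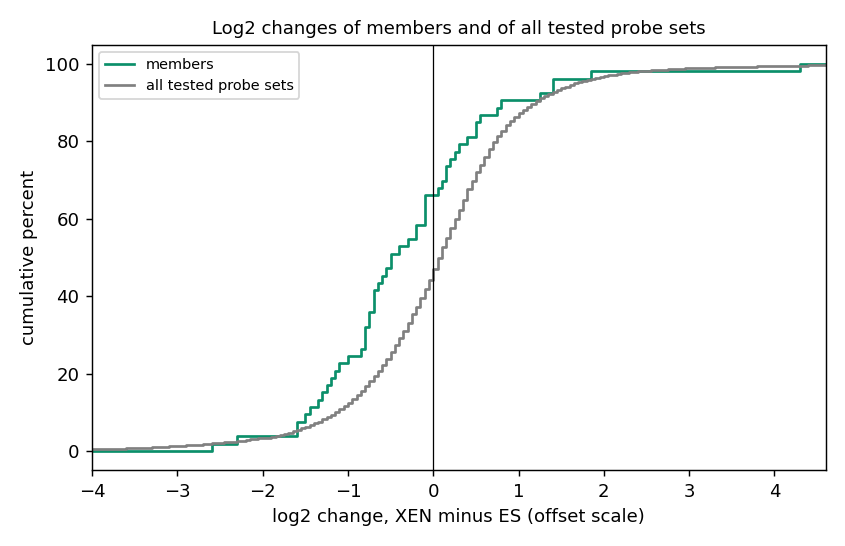
Cumulative percent of members (green) and of all 8582 tested probe sets (grey) against the log2 change, XEN minus ES. The medians are -0.50 for members and 0.05 for all tested probe sets.

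Among the SWI/SNF genes, the alternative ATPase Smarca2 rose and the core subunit Smarcc1 fell. Smarca2 (probe set 102384_at) had 185, 264 and 167 units in XEN, against 0.4 in ES. It was above the limit in every XEN culture and under it in ES, at least 7.37-fold higher (the geometric mean of the XEN arrays over the limit). The limma log2 change was 4.28 ± 0.35 (SE, adjusted p = 0.00383). Its size is set by the added offset, since ES was under the limit: it was 6.53 with the offset at the 5th percentile, 2.33 with the 50th and 2.88 with dim values set to the limit (adjusted p = 0.0496). The call passed under all 12 alternative settings.

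The other ATPase of the complex, Smarca4, was measured in both cell types. Its signal was 742, 699.6 and 736 units in XEN, against 1281 in ES, so that the groups did not overlap. The difference of -0.81 ± 0.25 in log2 did not pass (adjusted p = 0.0941), although it did when dim values were set to the limit (0.0466). Smarcc1 (probe set 102062_at), the BAF155 scaffold subunit, had 184, 188 and 246 units in XEN, against 642 in ES. All XEN cultures were lower, with a log2 change of -1.60 ± 0.30 (adjusted p = 0.0299). The call was lost on leaving out IM8A1-I (adjusted p = 0.0879) or leaving out IM8A1-II (0.0782), with 1 value per XEN line (0.0611) and with dim values set to the limit (0.0635).

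The remaining subunits did not pass. Smarcb1 (SNF5), a core subunit, had 332 to 389 units in XEN, against 516 in ES (adjusted p = 0.265), and Smarce1 (BAF57) had 77.6 to 83.9, against 59.9 (0.414). Smarcd1 (BAF60a) differed among the XEN cultures, at 301, 185 and 135 units, around the ES value of 186. Smarcd2 (BAF60b) was read by probe sets that disagree. The chosen one, whose suffix marks probes shared within a sequence family, had 199 to 277 units in XEN, against 400.5 in ES, and another had 163 to 204, against 109. Their log2 changes of -0.79 and 0.66 both missed the threshold. A further tested probe set of Smarcd2 was level, at 66 to 97.8 units in XEN and 81.5 in ES, and the last was under the limit on every array. The ISWI ATPase Smarca5 (SNF2H) overlapped between the cell types, at 219 to 307 units in XEN and 276 in ES. Smarcad1, a remodeller linked to heterochromatin upkeep, had 119 to 161 units in XEN and 304 in ES (log2 change -1.03, adjusted p = 0.0827), while a second probe set of the gene had 102 to 124 and 95.3.

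**Figure D3:**
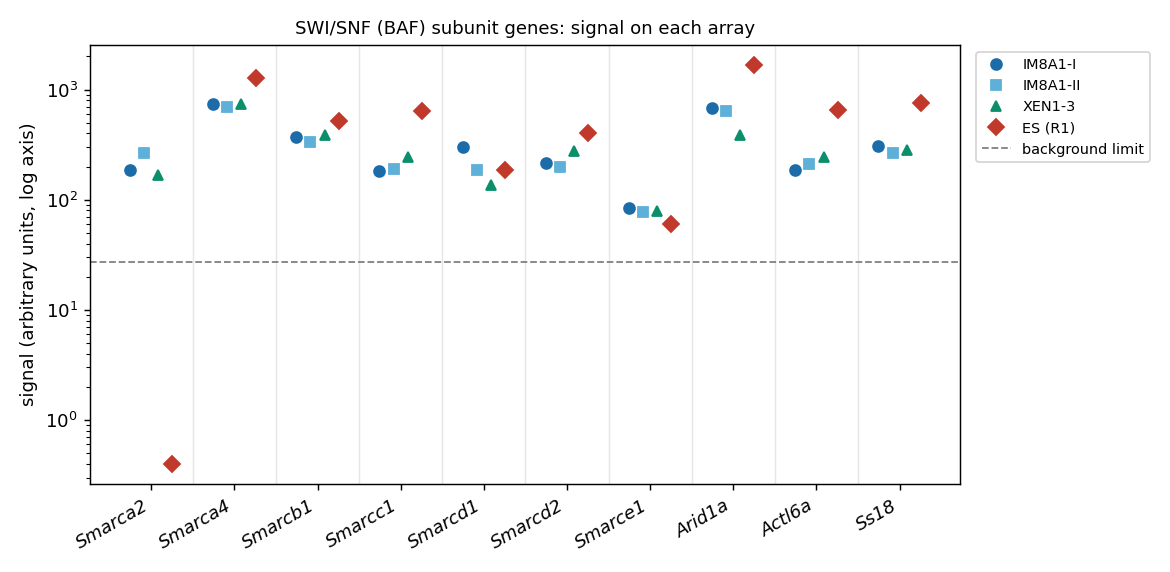
Signal on each array (arbitrary units, log axis) of 7 members of the SWI/SNF complex and of 3 partner subunits, XEN cultures left of ES, with the background limit as a dashed line. Smarca2 alone among them has ES under the limit, and Smarca4, Smarcb1, Smarcc1, Smarcd2, Actl6a, Arid1a and Ss18 have ES above all 3 XEN cultures. Signals of different genes come from different probes and cannot be compared in height.

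A list of SWI/SNF, INO80 and ISWI partners holds the subunits that the symbol rule does not reach. Of its 20 tested genes, 4 fell, 0 rose and 16 did not pass limma's adjusted threshold, beside 5.05% of all tested probe sets that fell and 5.58% that rose. Their median log2 change was -0.26. At an unadjusted p under 0.05, 8 were lower and 0 higher, beside 14.5% and 15.1% of all tested probe sets. Actl6a (BAF53a), an actin-like subunit, had 186, 209 and 244 units in XEN, against 654 in ES (log2 change -1.58 ± 0.29, adjusted p = 0.0277). Ss18, a BAF subunit, had 308, 265 and 284 units, against 755 (-1.37 ± 0.26, adjusted p = 0.0322). Both lay in each XEN culture below ES, and both calls were lost on leaving out IM8A1-I (adjusted p of 0.0827 for Actl6a and 0.0864 for Ss18) or IM8A1-II (0.0745 and 0.0863) and with 1 value per XEN line (0.0565 and 0.0618), that of Actl6a also with dim values set to the limit (0.0533). The other falls were the helicase genes Ruvbl1 and Ruvbl2, named after their values were seen. Ruvbl1 averaged 369 ± 92.1 units in XEN (SD, n = 3), against 1086 in ES (adjusted p = 0.0477). Ruvbl2 averaged 421 ± 113, against 1406 (adjusted p = 0.0394). Neither gene was followed singly through the alternative settings. Arid1a (BAF250a), likewise named after its values were seen, had 686, 641 and 389 units in XEN and 1684 in ES without passing (adjusted p = 0.0578).

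None of the 5 Chd remodellers passed limma's adjusted threshold, and 2, Chd7 and Chd1l, were lower at an unadjusted p under 0.05, beside 14.5% of all tested probe sets. Chd4, the ATPase of the NuRD complex, had 1987 to 2633 units in XEN, against 3428 in ES. Its probe set, 99120_f_at, has the suffix of probes shared within a sequence family. Chd8, a regulator of beta-catenin targets, had 230.5 to 265 units in XEN, against 323 in ES. Chd7, the gene mutated in CHARGE syndrome in human, had 79 to 105 units in XEN and 163 in ES. Chd1, a reader of methylated H3K4, overlapped, at 432 to 512 units in XEN and 504 in ES. Chd1l was dim: it had 9.9 to 12.1 units in XEN, all under the limit, against 42.4 in ES, at least 1.55-fold lower. Its adjusted p of 0.0801 became 0.0428 with no trend fitted to the variances. With dim values set to the limit, every XEN value became the same number, so no spread was left by construction. The adjusted p of 0.00417 in that setting is therefore no support for a fall, and the log2 change shrank there from -1.32 to -0.64.

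Among the deacetylases, Hdac1 fell and its close relative Hdac2 did not pass. Hdac1 (probe set 96046_at), a class I deacetylase of the Sin3, NuRD and CoREST complexes, had 118, 136 and 119 units in XEN, against 383 in ES. The XEN values lay close together and below ES, with a log2 change of -1.55 ± 0.27 (adjusted p = 0.0249, 0.0793 when IM8A1-I was left out and 0.0627 when IM8A1-II was). Hdac2 had 357, 493 and 412 units, against 688 (-0.71 ± 0.30, adjusted p = 0.180), and the difference between the paralogs was not tested. Hdac3, the deacetylase of the NCoR complex, had 102 to 105 units in XEN and 112 in ES.

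The class IIa deacetylases Hdac5 and Hdac7, which shuttle between nucleus and cytoplasm, stood above ES in every XEN culture without passing. Hdac7 had 366, 289 and 322 units, against 183 (log2 change 0.79 ± 0.28, adjusted p = 0.126), and Hdac5 had 279, 329 and 244, against 196 (0.50 ± 0.29). Hdac6, a cytoplasmic tubulin deacetylase, overlapped, at 869.8 to 1186 units in XEN and 966 in ES.

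Of the NAD-dependent sirtuins, Sirt2 rose: this mainly cytoplasmic deacetylase (probe set 95502_at) had 199.9, 249 and 237 units in XEN, against 81 in ES. All XEN cultures were higher, by 1.38 ± 0.28 in log2 (adjusted p = 0.0362). The call was lost under 5 of 12 alternatives, with an adjusted p of 0.0809 on leaving out IM8A1-I, 0.0978 on leaving out IM8A1-II, 0.0593 with 1 value per XEN line, 0.0549 with dim values set to the limit and 0.0508 without a filter. Mitochondrial Sirt3 had 34.5, 19.4 and 32 units in XEN, against 75 (-1.15 ± 0.37, adjusted p = 0.107).

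The scaffold Sin3a fell while Sin3b did not pass, and the difference between them was not tested. Sin3a (probe set 103011_at), which holds Hdac1 and Hdac2, had 276, 292 and 325 units in XEN, against 743 in ES. The groups did not overlap, and the log2 change was -1.29 ± 0.27 (adjusted p = 0.0381, 0.112 when IM8A1-I was left out, 0.0972 when IM8A1-II was and 0.0784 with 1 value per XEN line). Sin3b had 540.5, 528 and 582 units, against 646 (-0.23 ± 0.26, adjusted p = 0.592). A second, dimmer Sin3b probe set had 15.3, 27.3 and 76.5 units in XEN, around the ES value of 50.5.

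In the list of NuRD, Sin3 and co-repressor partners, 3 of 11 tested genes fell, 1 rose and 7 did not pass, beside 5.05% of all tested probe sets that fell and 5.58% that rose. Their median log2 change was -0.012. Sap30, a small subunit of the Sin3 complex, had 26.2, 36.2 and 17.1 units in XEN, near the limit, against 342 in ES (-3.29 ± 0.38, adjusted p = 0.00946). With 2 XEN arrays under the limit, the size of this log2 change moved with the handling of dim values, between -3.66 and -2.37 over the alternatives. Trim28 (KAP1), the co-repressor of zinc finger proteins, had 2696, 2063 and 2812 units, against 7092 (-1.50 ± 0.28, adjusted p = 0.0312, 0.0821 when IM8A1-I was left out, 0.0762 with dim values set to the limit and 0.0663 without a filter). All XEN cultures lay below ES for both. The histone chaperone gene Rbbp4, named after its values were seen, also fell (adjusted p = 0.0382). It had 333 ± 137 units in XEN (SD, n = 3), against 1474 in ES, and was not followed singly through the alternatives. In the other direction Rcor1 (CoREST), the partner of the demethylase Kdm1a, rose to 626, 666 and 508 units in XEN, against 126 in ES (2.16 ± 0.29, adjusted p = 0.0134). Rcor1 and Sap30 passed under all 12 alternatives.

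Among the lysine demethylases, Kdm5b and Kdm3b fell. Kdm5b (probe set 103310_at), which removes methyl groups from H3K4, had 32.9, 40 and 26.9 units in XEN, against 205 in ES. The XEN cultures lay around the background limit. The log2 change was -2.31 ± 0.32 (adjusted p = 0.0138), which ranged from -2.64 to -1.62 over 12 alternatives and passed under all of them (adjusted p of 0.00788 to 0.0451). Kdm3b (probe set 94973_at), an H3K9 demethylase, had 160.5, 157 and 187 units in XEN, against 477 in ES. All XEN cultures were lower, with a log2 change of -1.45 ± 0.27 (adjusted p = 0.0306), and the call was lost on leaving out IM8A1-I (0.0905) or IM8A1-II (0.0844) and with 1 value per XEN line (0.0637).

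The other demethylases did not pass. Kdm3a, a relative of Kdm3b, had 254, 378 and 345 units in XEN, against 544 in ES (adjusted p = 0.191). Kdm5a, a paralog of Kdm5b, lay on the other side, at 26.8, 29.7 and 19.4 units in XEN, near or under the limit, against 3.2 in ES, and its log2 change of 1.37 ± 0.39 missed the threshold (adjusted p = 0.0813). Kdm1a (LSD1), which demethylates H3K4 with Rcor1, had 59.5 to 66.8 units in XEN and 40.7 in ES.

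None of 4 lysine methyltransferases passed limma's adjusted threshold, and 1, Kmt2a (MLL1), was lower at an unadjusted p under 0.05 (array-wide 14.5%), with 107 to 132 units in XEN, against 226 in ES. A second Kmt2a probe set had 72.4 to 80.8 units in XEN and 103 in ES, a smaller difference. Kmt5c, an H4K20 methyltransferase, had 147 to 244 units in XEN, against 322, while Kmt5a, which places the first methyl group on that residue, had 581 to 745, against 548. Kmt2e, of the MLL family, overlapped, at 136 to 183 units in XEN and 152 in ES. In a list of other histone methyltransferases and their subunits, 1 of 13 tested genes, Setdb1, fell and 0 rose by limma's adjusted p, with 2 up and 2 down at an unadjusted p under 0.05. Setdb1, an H3K9 methyltransferase, had 150.5, 198 and 171 units in XEN, against 434 (adjusted p = 0.0463, 0.124 when IM8A1-I was left out and 0.0862 when IM8A1-II was), and the call was lost under 6 of 12 alternatives.

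By the chosen probe sets, all 3 acetyltransferases of the Kat family were lower in every XEN culture than in ES. Of the 3, 0 passed limma's adjusted threshold, with 2, Kat2a and Kat2b, at an unadjusted p under 0.05 (array-wide 14.5%). Kat2b (PCAF) had 13, 80 and 17 units in XEN, against 227 in ES. It was under the limit in both cultures kept in 70% EMFI-CM and above it in IM8A1-II. The log2 change of -2.61 ± 0.78 (adjusted p = 0.0885) passed on leaving out IM8A1-II (-3.22, adjusted p = 0.0212) and with 1 value per XEN line (0.0297). Kat2a (Gcn5), its paralog in SAGA-type complexes, had 54.3, 71.5 and 111 units, against 189.5 (adjusted p = 0.115). Kat7 (HBO1) had 519 to 597 units in XEN and 795 in ES. A second, dimmer Kat7 probe set overlapped between the cell types, at 33.5 to 63.8 units in XEN and 41.6 in ES. Of 16 tested acetyltransferase and bromodomain partners 1, Hat1, fell and 0 rose by limma's adjusted p, with 1 higher at an unadjusted p under 0.05. Hat1, which acetylates newly made histone H4, had 993, 929.7 and 1006 units in XEN, against 4821 in ES. This log2 change of -2.29 ± 0.24 (adjusted p = 0.00801) passed under all 12 alternatives.

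The readers of marks were mixed. Cbx1 (HP1 beta, probe set 96775_at), which binds methylated H3K9, fell: it had 84.5, 112 and 80.2 units in XEN, against 301 in ES. All XEN cultures were lower, with a log2 change of -1.61 ± 0.30 (adjusted p = 0.0311, 0.0876 when IM8A1-I was left out, 0.0545 when IM8A1-II was, 0.0729 with dim values set to the limit and 0.0505 without a filter). Cbx5 (HP1 alpha) had 213, 346 and 230.1 units, against 420 (adjusted p = 0.256). For Cbx2, a Polycomb chromobox gene, the chosen probe set was dim, at 32.4, 49.6 and 42.1 units in XEN and 32.9 in ES, with ES inside the range of the XEN cultures. A second Cbx2 probe set, of lower mean signal and named after its values were seen, read 22, 19.2 and 12.5 units, against 87.9, and fell (-1.81, adjusted p = 0.0369). Which of these reports Cbx2 cannot be read from the 4 arrays. Cbx6, also of the Polycomb class, had 97.4 to 114 units in XEN and 117 in ES. A second Cbx6 probe set ran the other way, at 63.9 to 84.6 units in XEN and 52.1 in ES, without passing. Cbx7 read at most 2.4 units on any array.

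By limma's adjusted p 0 of the 4 methyl-CpG binding genes were called, and 0 at an unadjusted p under 0.05. Mbd3, a NuRD subunit, had 380.5 to 443 units in XEN, against 488 in ES, and Mbd4, a DNA glycosylase, had 74.3 to 88.5, against 113. Mbd2, under the limit in ES, had 31.3, 62.7 and 47.4 units in XEN, against 23.2 (log2 change 0.74 ± 0.41, adjusted p = 0.285), and Mbd1 had 30.3 to 44.7, against 24.2.

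Asxl1 (probe set 104246_at), a partner of the Bap1 deubiquitinase that acts on histone H2A, fell. It had 175, 152 and 218 units in XEN, against 479 in ES, with no overlap. The log2 change was -1.36 ± 0.31 and the adjusted p 0.0477, the nearest to the threshold of the 10 calls. That call was lost under 6 of 12 alternatives, among them leaving out IM8A1-I (0.123) or IM8A1-II (0.112). A second Asxl1 probe set was also lower, at 52.1, 104 and 84.7 units in XEN, against 146 (adjusted p = 0.235).

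Of the arginine methyltransferases 0 of 3 passed limma's adjusted threshold, and 1, Prmt1, was lower at an unadjusted p under 0.05 (array-wide 14.5%). Prmt1, the main enzyme of asymmetric arginine dimethylation, had 906, 662 and 967 units in XEN, against 1522 in ES (log2 change -0.86 ± 0.31, adjusted p = 0.137). Prmt3 had 51.5 to 76.9 units in XEN and 99.7 in ES, and Prmt5 was dim, with 1 array above the limit.

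The high mobility group (HMG) genes, which encode small abundant proteins that bend DNA or bind nucleosomes, held a rise, Hmgb3, and 2 genes that differed among the XEN cultures, Hmga2 and Hmgn5. Hmgb3 (probe set 98038_at), an X-linked HMG-box gene, had 1496, 1959 and 2029 units in XEN, against 503 in ES. Every XEN culture was higher, by 1.83 ± 0.29 on the log2 scale (adjusted p = 0.0206), and the call was lost on leaving out IM8A1-II (0.0525) and with dim values set to the limit (0.0549). Its relative Hmgb2 had 237, 313 and 207 units, against 413 (adjusted p = 0.209). Hmgn1, a nucleosome-binding protein, was bright in all cultures, at 6154 to 6916 units in XEN and 5768 in ES.

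**Figure D4:**
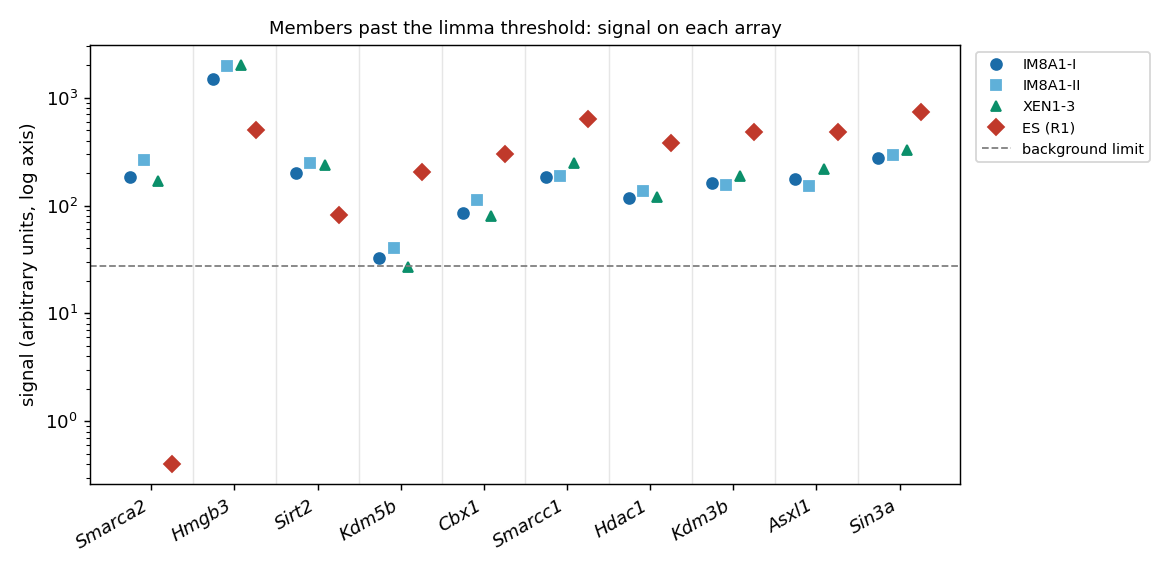
Signal on each array (arbitrary units, log axis) of the 10 members past the limma threshold, XEN cultures left of ES, with the background limit as a dashed line. In the 3 genes at the left every XEN culture is above ES, and in the 7 at the right every XEN culture is below it.

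Within XEN cells, chromatin genes differed less between cultures than between XEN and ES. The median absolute log2 difference of members was 0.29 between IM8A1-II and IM8A1-I and 0.20 between XEN1-3 and IM8A1-I, against 0.74 between XEN and ES. Over all tested probe sets these values were 0.27, 0.32 and 0.55. These are single arrays set against each other, with no test, and both differences share the IM8A1-I array. For IM8A1-II, in serum medium on plastic, 2 members were at least 2-fold higher than in IM8A1-I (3.77%, beside 3.51% of all tested probe sets) and 1 was lower (1.89%, beside 2.47%). For XEN1-3, the other line, 1 member was higher (1.89%, beside 4.58%) and 2 were lower (3.77%, beside 4.53%).

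Hmga2, an AT-hook protein of embryonic and stem cells, had 37.9 units in IM8A1-II and 62.2 in XEN1-3, against 176 in IM8A1-I, where it was close to the ES value (181). The log2 difference from IM8A1-I was -1.94 in IM8A1-II and -1.36 in XEN1-3. Hmgn5, an X-linked nucleosome-binding gene, showed the opposite, with 774 units in IM8A1-II and 697 in XEN1-3, against 282 in IM8A1-I, while ES had 222. Here the log2 differences from IM8A1-I were 1.42 in IM8A1-II and 1.27 in XEN1-3. In XEN against ES neither gene passed, with adjusted p of 0.346 for Hmga2 and 0.227 for Hmgn5. Kat2b had 80 units in IM8A1-II and 13 in IM8A1-I, which is under the background limit, so that no size is given for the difference. Smarcd1 had a log2 difference of -1.10 between XEN1-3 and IM8A1-I.

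**Figure D5:**
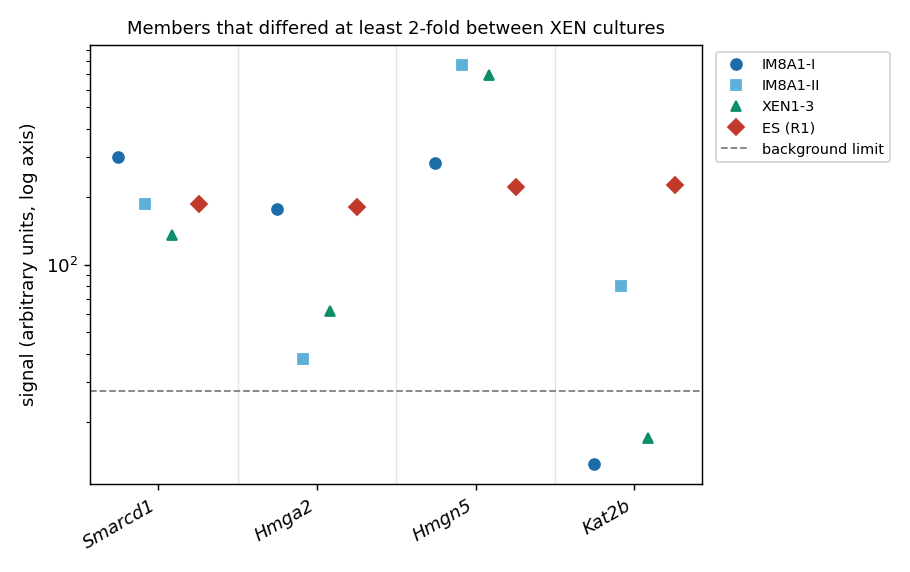
Signal on each array (arbitrary units, log axis) of the 4 members that differed at least 2-fold between XEN cultures, XEN cultures left of ES, with the background limit as a dashed line. IM8A1-I stands apart from the other XEN cultures for Hmga2 and Hmgn5, and IM8A1-II stands apart for Kat2b.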

How the data were processed

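Arrays were grouped by the labels' source names. The deposited values are linear intensity values, 1 for each of 12488 probe sets per array. The probe summarisation software is named in none of the sources used here. Trimmed means (2%) of the deposited intensity values, 150.092, 150.095, 150.09 and 150.088, show that the arrays were already on a common scale. Per the file headers, run records gave chip lots and fluidics messages. Control probe sets (66) were left out, 10.5 units (the 25th percentile) were added before log2, which understates changes of dim genes, and probe sets with at least 1 array at the 40th percentile, 27.3 units, were tested (8582). This limit is not a detection call. Of the probe sets, 10833 had 1 symbol in the platform annotation, 396 several and 1193 none, and 10817 of the 10833 were found in RefSeq (GRCm38.p6). Of those with several symbols, 4 named a gene of these families and were left out. XEN was compared with ES in limma 3.58.1 (R 4.3.3) with a variance trend, a prior of 3.76 and 2 residual degrees of freedom, two-sided, after the script was tested on simulated data. The number of arrays limits the precision. The naming rule took called members, the largest change and highest mean signal in each family, members at least 2-fold apart between XEN cultures with an array at 84.7 units, members with opposed probe sets, and up to 2 called partners per list and direction. Other members are described with their families. The members and lists were chosen with earlier results of these data known. Alternatives changed the offset, dim values, scaling, filter, variance trend, probe set choice and replicates. Figures used matplotlib 3.10.9.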

Additional observations from a re-analysis of the deposited data

How the results depend on the processing

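The members that fell numbered 7 as reported, 6 with dim values set to the background limit, 5 unfiltered, 4 with 1 value per XEN line and 1 to 8 when a XEN replicate was left out. These totals are not always of the same genes. With dim values set to the limit, Cbx1, Smarcc1 and Asxl1 lost the call, and Smarca4 and Chd1l gained it. For Chd1l that setting left no spread among the XEN values by construction, so its gained call is no support for a fall. With 1 value per XEN line, Smarcc1, Kdm3b, Sin3a and Asxl1 lost it, and Kat2b gained it. The members that rose numbered 3, or 2 unfiltered, 2 with 1 value per XEN line, 1 with dim values set to the limit and 1 to 3 with a replicate left out. The median log2 change of all tested members, -0.50 as reported, stayed below 0 in every alternative run. It was -0.43 with an offset of the 50th percentile, -0.60 with a common median and -0.46 with quantile normalization. Unfiltered it was -0.39, and with a filter at the 60th percentile -0.59. It was -0.46 with plain _at probe sets, -0.39 over all probe sets of a gene, and -0.51 to -0.44 with a replicate left out. Median scaling put the median of all tested probe sets at -0.04. Partner genes that fell numbered 12 of 78 tested, or 3 with dim values set to the limit, 6 unfiltered, 5 with 1 value per XEN line and 2 to 13 with a replicate left out. Partners that rose numbered 1, or 2 with a filter at the 60th percentile (array-wide 8.05%) and 1 to 3 with a replicate left out. The array-wide shares beside the member and partner counts moved too. As reported, 5.05% of tested probe sets fell and 5.58% rose. These shares were 6.25% and 2.8% with dim values set to the limit, 3.15% and 2.6% unfiltered, and 3.72% and 4.05% with 1 value per XEN line. Those with a replicate left out are given above. The causes of these shifts were not tested. Over all tested probe sets 479 rose and 433 fell, against 240 and 536 with dim values set to the limit. Smarcd1, not called, changed sign with a common median (-0.025), with 1 value per XEN line (-0.057) and when a replicate was left out (-0.22 to 0.33). Of the other single-gene values, 395 kept direction and side of the threshold, 51 lost a call and 5 gained one. No paired analysis was possible because the ES group has 1 sample. Its own spread is thus unknown, and values near the limit have no reliable order.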

Other observations

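Several genes of a list of histone chaperones and variants, a group that the report does not describe, were lower in XEN cells. Cenpa was the only histone variant of the list that was matched by symbol. Whether the array reads the others under another symbol was not checked. It had 134, 125 and 280 units in XEN, with the ES value of 184 inside that range. Of 18 tested genes of this list 3 fell, 0 rose and 15 did not pass limma's adjusted threshold, with 1 up and 5 down at an unadjusted p under 0.05, beside 15.1% and 14.5% of all tested probe sets. The median log2 change was -0.53, beside 0.05 over all tested probe sets, of which 5.05% fell and 5.58% rose. Nasp, which carries linker and core histones, had 129, 134 and 94.2 units in XEN, against 477 in ES (log2 change -1.92 ± 0.31, adjusted p = 0.0214). Anp32a, an acidic histone-binding protein, had 74.6, 101 and 114 units in XEN, against 354 in ES (-1.79 ± 0.32, adjusted p = 0.0277). All 3 XEN cultures lay below ES for both. The calls were lost on leaving out IM8A1-I (adjusted p of 0.0592 for Nasp and 0.0669 for Anp32a) and IM8A1-II (0.0504 and 0.0676), and with dim values set to the limit (0.0622 and 0.0781). The remaining fall, Set, named after its values were seen, had 1035 ± 112 units in XEN (SD, n = 3), against 2317 in ES (adjusted p = 0.0489). Set was not followed singly through the alternatives. Ubn1, a subunit of the HIRA complex also named after its values were seen, was higher, at 467, 351 and 393 units in XEN, against 165 in ES, and missed the threshold (adjusted p = 0.0532).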
